A study of Gallus gallus with 6 samples.

Results

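Leg muscle at day 1 after hatching (P1) was compared with leg muscle at embryonic day 11 (E11) in Xinghua chicken, a breed of Gallus gallus, by counting small RNA reads per miRNA. The 2 samples titled P1 and the 2 titled E11 were compared, which are 4 of the 6 samples of the series. The 2 samples of embryonic day 16 (E16) entered the filter for testing, the scaling and the estimate of the spread. They are also given as intermediate levels. P1 and E11 samples shared the breed, the tissue and the labelled sex (female), with no treatment or genetic change stated, and differed in age. The labels describe whole leg muscle and name no sorting or dissection of single muscles. Whether the 2 samples of an age came from different birds is not stated, so the spread behind each p-value is that between these libraries and may be technical.

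A miRNA is a short RNA cut from a hairpin precursor, from which the 5p arm, the 3p arm or both are kept, and it lowers the output of messenger RNAs that pair with its seed. In embryonic chick leg, myoblasts divide, leave the cell cycle and fuse into fibres, and around hatching the limb holds differentiated fibres with their vessels, nerves and connective tissue. The miR-1, miR-133 and miR-499 families are known for their accumulation in differentiated striated muscle, while clusters such as miR-17-92 and miR-221 with miR-222 are known from dividing cells.

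Total counts were 2641042 and 2201359 in the P1 libraries, against 303556 and 589154 in the E11 libraries, so 3 counts correspond to 1.29 and 1.69 CPM at P1 but to 8.76 and 4.32 CPM at E11. CPM stands for the usual depth-normalized read count after TMM scaling, which assumes most entries do not change. Shares of counts are given without this scaling, whose factors were 0.88 and 0.80 at P1, against 1.13 and 1.18 at E11. The muscle miRNAs that mark the labelled tissue were present in all 4 libraries, and each library stood apart in some other miRNAs. P1 replicate 2 had 8666 CPM of miR-2954, a Z-linked miRNA that is known to be far more abundant in male than in female birds, against 437 CPM in P1 replicate 1 and 306 and 313 CPM at E11. That library therefore goes against its label of female, and it is called the library labelled P1 replicate 2, or P1 replicate 2 for short. P1 replicate 1 had 3.05% of its counts in the red blood cell miRNAs miR-144 and miR-451 (95% Wilson interval 3.03% to 3.07%), and between 0.347% and 0.622% were found in the other 3. E11 replicate 2 had 1839.8 CPM of miR-31-5p, against 23.3 CPM in E11 replicate 1. E11 replicate 1 was the higher in miR-140-3p and miR-215-5p. For these, the log2 level of E11 replicate 2 minus that of E11 replicate 1 was -2.64 and -3.54.

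Of 289 entries with enough counts to be tested, 88 (30.4%) passed a Benjamini-Hochberg adjusted p of 0.05 in the quasi-likelihood test of edgeR. At P1, 41 (14.2%) were higher and 47 (16.3%) were lower. The median log2 fold change of all entries tested was -0.15. Scaling by total counts alone gave a median of -0.62 and a split of 20 higher and 64 lower, so directions given here are relative to the TMM scale. "Rose" and "fell" are used only of entries past this threshold, and all 88 had P1 and E11 samples that did not overlap in CPM, as did 65.1% of all entries tested. Among miRNAs with a miRBase-style name, 32 rose and 32 fell of 199 tested, and outside the muscle and epithelial lists 24 rose and 27 fell of 182. Rises were the more frequent among abundant entries and falls among rare ones, a split whose difference was not tested. Of entries with a mean over P1 and E11 above 1000 CPM, 19 rose and 11 fell of 82, and of those under 100 CPM, 11 rose and 27 fell of 147. The filter for testing works on CPM, so a rare entry could enter with fewer counts at E11 than at P1. With a stricter minimum count of 50, 33 were higher and 26 lower, and the part of the filter in the split was not tested. Fits without 1 library called fewer: 19 when P1 replicate 1 was left out, 23 for P1 replicate 2, 33 for E11 replicate 1, 61 for E11 replicate 2, 21 for E16 replicate 1 and 10 for E16 replicate 2. Among the named calls, 6 were kept in each of these 6 fits: miR-1a-3p, miR-133a-3p, miR-133c-3p and miR-126-5p, which rose, and miR-205b and miR-200a-5p, which fell.

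**Figure D1:**
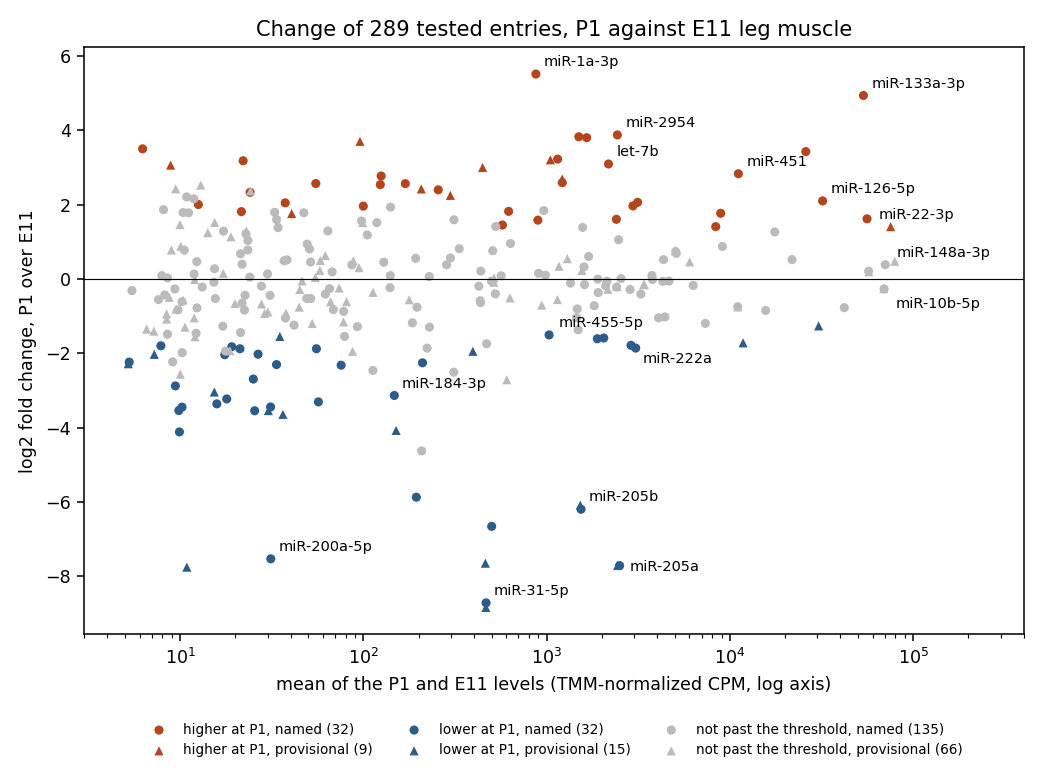
Log2 fold change of P1 over E11 (vertical axis) against the mean of the P1 and E11 levels in TMM-normalized CPM (horizontal log axis), 1 point per tested entry; circles are named miRNAs and triangles provisional entries. Of the 41 entries that rose, miR-133a-3p and miR-22-3p lie far to the right, and 27 of the 47 that fell lie under 100 CPM.

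Of the 10 most abundant named miRNAs at P1, 8 were also among the 10 most abundant at E11. miR-133a-3p was rank 1 at P1 and rank 30 at E11, and miR-499-5p was rank 7 at P1 and rank 21 at E11. miR-148a-3p, rank 3 at P1 and rank 2 at E11, had 76435 and 83047 CPM at P1, against 68274 and 53710.1 CPM at E11 (log2 fold change 0.39, SE 0.29). It did not pass, and its log2 fold change was -0.07 with scaling by total counts. miR-10b-5p, whose gene lies among the HOX genes, was rank 4 at P1 and rank 1 at E11, with 64905 and 61131 CPM at P1, against 73262 and 78167 CPM at E11 (log2 fold change -0.26, SE 0.32). The other HOX-embedded miRNA of this rank, miR-10a-5p, had 30532 and 31685 CPM at P1, against 12836 and 93264 CPM at E11 (log2 fold change -0.77, SE 0.80). Its E11 libraries lay on either side of the P1 libraries, and the log2 fold change was -1.53 without E11 replicate 1 and 1.25 without E11 replicate 2. miR-100-5p and miR-146c-5p were rank 15 and 16 at P1 and rank 6 and 8 at E11, at -0.84 (SE 0.32) and -0.75 (SE 0.42) on the log2 scale, neither of which passed.

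Muscle miRNAs had the 2 largest log2 fold changes of the named miRNAs. miR-1a-3p had 931 and 2485 CPM at P1, against 46.7 and 28.8 CPM at E11, a 45.8-fold rise (log2 fold change 5.52, SE 0.71), and it had 439 and 620.2 CPM at E16. miR-133a-3p, encoded beside miR-1a, had 68277 and 139114 CPM at P1, against 3219 and 3543 CPM at E11 (log2 fold change 4.94, SE 0.46). In both, each P1 library was more than an order of magnitude above each E11 library, and the P1 libraries lay apart, with P1 replicate 2 the higher. miR-499-5p, from an intron of a myosin heavy chain gene, had 58895 and 36070.2 CPM at P1, against 5819.6 and 2999.5 CPM at E11 (log2 fold change 3.43, SE 0.53), and here P1 replicate 1 was the higher. Its other arm miR-499-3p had 4091 and 2081 CPM at P1, against 155 and 285 CPM at E11 (log2 fold change 3.80, SE 0.55). miR-206, known from myoblasts as well as fibres, had 1798 and 4869.6 CPM at P1, against 1652 and 1549 CPM at E11 and did not pass (log2 fold change 1.06, SE 0.51). Only P1 replicate 2 stood clearly above E11, and without it the log2 fold change was 0.21. In these bulk samples, fewer cells of a type and less of a miRNA per cell cannot be told apart.

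Of the 13 listed muscle miRNAs, 10 were tested and 8 rose, with a median log2 fold change of 3.47. Among all entries tested 14.2% rose and the median was -0.15. Also past the threshold were miR-133a-5p (3.23, SE 0.55), miR-133c-3p (3.83, SE 0.50), miR-133b (2.54, SE 0.72) and the rare arm miR-1a-2-5p. That arm was counted 48 times in the P1 libraries and once in those of E11, and the ratio of CPM was 12.2 with a 95% range of 2.08 to 490.3 for counting error. miR-1a-1-5p, from the other miR-1a hairpin, had 35 and 34 counts at P1, against 2 and 3 counts at E11 (log2 fold change 1.78, SE 0.58) and did not pass. miR-1b-3p had 10 and 15 counts at P1 and none in either E11 library, where 3 counts would be 8.76 and 4.32 CPM. The list took 12.1% and 15.4% of counts at P1, against 1.28% and 1.04% at E11. Without P1 replicate 2, miR-1a-3p had 4.68 and miR-133a-5p 2.51. With P1 replicate 1 left out, miR-499-3p had 3.19. Without E11 replicate 1, miR-499-5p had 4.05 and miR-133b 3.53, and without E11 replicate 2, miR-133b had 1.87 and miR-1a-2-5p 6.97. The call of miR-133b was lost in all 6 such fits and that of miR-1a-2-5p in the 3 that tested it, those of miR-499-5p and miR-133a-5p in 2 of the 6 and that of miR-499-3p in 1.

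**Figure D2:**
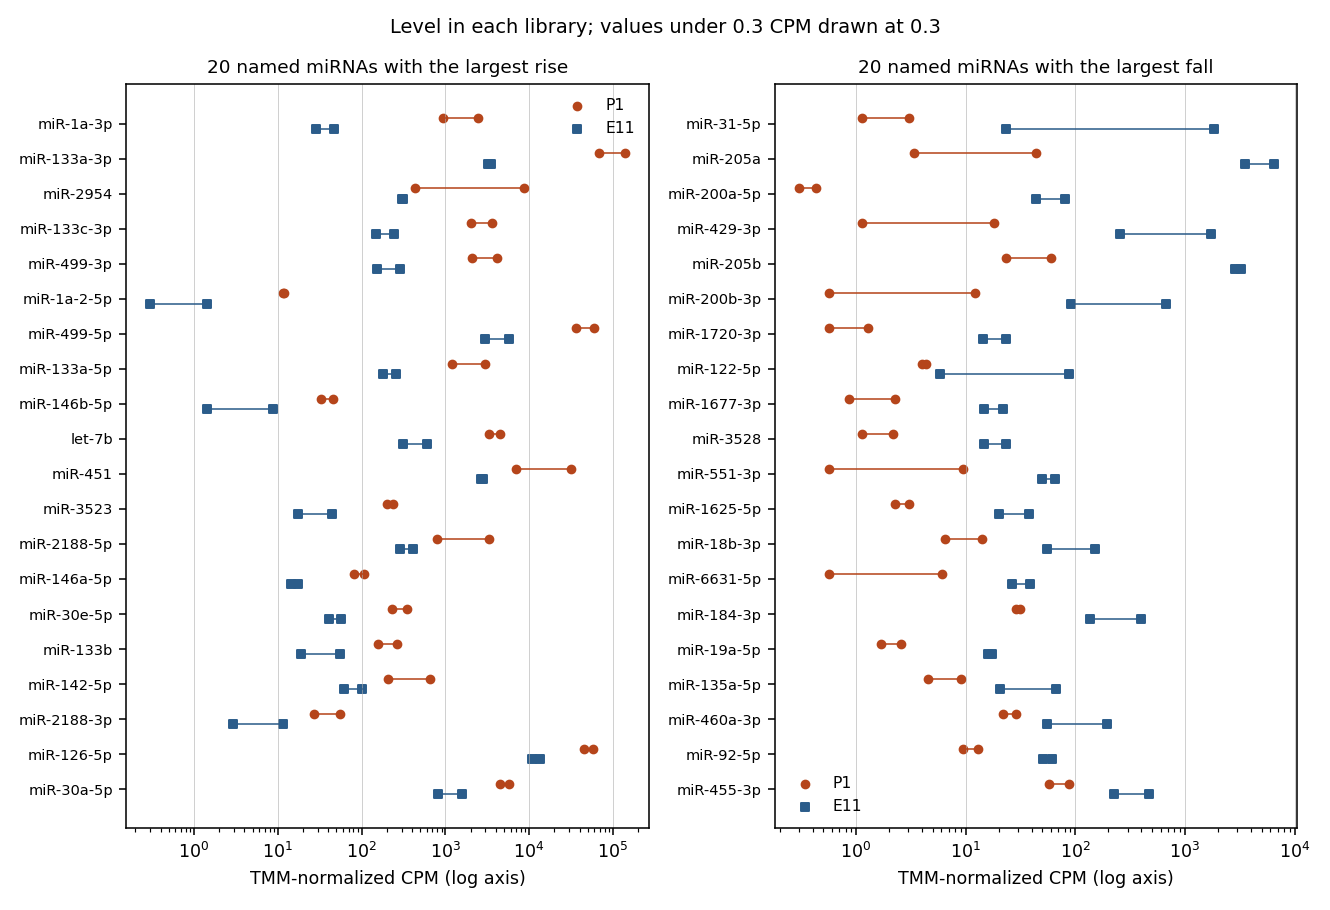
TMM-normalized CPM (horizontal log axes) of the 20 named miRNAs with the largest rise (left) and the largest fall (right), with P1 libraries as circles and E11 libraries as squares, 1 point per library joined within an age and values under 0.3 CPM drawn at 0.3. No row overlaps between ages; miR-2954, miR-31-5p and miR-122-5p show a wide gap between the 2 libraries of one age.

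Among abundant miRNAs outside the muscle list, miR-22-3p rose. It had 85836 and 83188 CPM at P1, against 24233 and 30721 CPM at E11, a 3.08-fold rise (log2 fold change 1.62, SE 0.29), with 56766 and 58146 CPM at E16. Both P1 libraries lay close together and above both E11 libraries, with E16 between them. miR-22-5p, the rare arm, had 40.5 and 60.4 CPM at P1, against 17.5 and 15.8 CPM at E11 and a like change of 1.60 (SE 0.57) that did not pass. The call of miR-22-3p was lost without E16 replicate 2 and without either P1 library.

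Both arms of miR-126, the miRNA of an intron of the endothelial gene Egfl7, rose. miR-126-5p had 45563 and 58381 CPM at P1, against 10719.9 and 13486 CPM at E11 (log2 fold change 2.10, SE 0.32), with 36774 and 31444 CPM at E16. miR-126-3p had 11784 and 15745 CPM at P1, against 3029 and 5041 CPM at E11 (log2 fold change 1.77, SE 0.43). The 5p arm was the more abundant in all 4 libraries, and its call was kept in all 6 fits without 1 library, while that of the 3p arm was lost in 5. Together they took 5.04% and 5.96% of counts at P1, against 1.55% and 2.18% at E11, which is the whole endothelial list, and its part in other results was not tested.

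In the let-7 family, which is known to accumulate as tissues differentiate, one member stood out. let-7b had 3285 and 4501 CPM at P1, against 601 and 311 CPM at E11, an 8.55-fold rise (log2 fold change 3.10, SE 0.46), and 3346 and 3971 CPM at E16, which lay between the P1 libraries. The more abundant let-7f-5p had 21998 and 29469.9 CPM at P1, against 25132 and 10716 CPM at E11 (log2 fold change 0.52, SE 0.44) and let-7a-5p had 5738 and 6916 CPM at P1, against 4827 and 2744 CPM at E11 (log2 fold change 0.74, SE 0.37). Neither passed, and let-7a-5p may share its reads with let-7j-5p, whose counts were nearly the same in every library. let-7g-5p, with 455 and 481 CPM at P1, against 196 and 115 CPM at E11, lay just outside the threshold (log2 fold change 1.60, SE 0.51, edgeR Benjamini-Hochberg adjusted p = 0.050006). Of 14 tested members 1 rose and 1 fell, beside 14.2% higher and 16.3% lower among all entries, and the median was 0.52. The member that fell was let-7c-3p, a rare arm with 5.17 and 11.9 CPM at P1, against 26.3 and 33.1 CPM at E11 (log2 fold change -1.82, SE 0.57), whereas let-7c-5p had 4511 and 3923 CPM at P1, against 5236 and 3571 CPM at E11 (log2 fold change -0.06, SE 0.34). Without E11 replicate 1, let-7b had 3.70 and let-7f-5p 1.32, and without P1 replicate 2 let-7c-3p had -2.45. let-7b lost its call in 1 of the 6 fits without 1 library and let-7c-3p in all 6.

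The miR-30 family, a group of related miRNAs found across differentiated tissues, was higher at P1 in all 8 tested members, of which 4 rose, with a median of 1.56. Among all entries tested 14.2% rose and the median was -0.15. miR-30a-5p had 4435 and 5685 CPM at P1, against 826 and 1591 CPM at E11 (log2 fold change 2.06, SE 0.42). miR-30b-5p had 4037 and 5382 CPM at P1, against 665 and 1739 CPM at E11 (log2 fold change 1.97, SE 0.52). In both, each P1 library was more than 2 times the higher E11 library. miR-30d had 3689 and 3542 CPM at P1, against 674 and 1696 CPM at E11 (log2 fold change 1.61, SE 0.49), and miR-30e-5p had 351 and 229 CPM at P1, against 40.9 and 56.2 CPM at E11 (log2 fold change 2.57, SE 0.56). The most abundant member, miR-30c-5p, had 19097 and 30502 CPM at P1, against 7264 and 13336 CPM at E11 and did not pass (log2 fold change 1.27, SE 0.46). The P1 and E11 libraries overlapped in the 3p arm of miR-30a, with 797 and 1103 CPM at P1, against 1167 and 542 CPM at E11 (log2 fold change 0.15, SE 0.49). Without E11 replicate 2, miR-30b-5p had 2.78 and miR-30d 2.40. The 4 calls were lost in 4 or 5 of the 6 fits without 1 library.

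miR-23b, miR-27b and miR-24 are encoded together, and miR-27b is known in mouse to act on Pax3 in muscle progenitors. miR-27b-3p had 9433 and 14879 CPM at P1, against 4731 and 4420.0 CPM at E11 (log2 fold change 1.41, SE 0.34). miR-24-3p had 943 and 737 CPM at P1, against 339 and 275 CPM at E11 (log2 fold change 1.45, SE 0.44) and miR-23b-3p had 158 and 160.4 CPM at P1, against 37.9 and 43.2 CPM at E11 (log2 fold change 1.96, SE 0.49). All 3 rose, beside 14.2% higher among all entries, while miR-27b-5p, the other member tested, had 0.46 (SE 0.48). With scaling by total counts 1 of the 4 was called higher, and with the E11 and P1 samples alone 0 were. Both arms of miR-193a rose too. miR-193a-3p had 929 and 1003 CPM at P1, against 289 and 258 CPM at E11 (log2 fold change 1.82, SE 0.50) and the rare miR-193a-5p had 49.5 and 71.2 CPM at P1, against 14.6 and 14.4 CPM at E11 (log2 fold change 2.05, SE 0.51). miR-193b-3p (1.41, SE 0.51) and miR-365-3p (1.19, SE 0.55), which share a cluster, did not pass. In the miR-15 and miR-16 family miR-15a alone rose among 5 tested, beside 14.2% higher among all entries. It had 1496 and 1191 CPM at P1, against 306 and 588 CPM at E11 (log2 fold change 1.58, SE 0.48). These 6 calls were lost in 5 or 6 of the 6 fits without 1 library.

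Other miRNAs known from muscle or connective tissue were higher without passing. miR-26a-5p, which in mouse myoblasts targets Ezh2, had 2549 and 2000.1 CPM at P1, against 534 and 1202 CPM at E11 (log2 fold change 1.39, SE 0.49, edgeR Benjamini-Hochberg adjusted p = 0.0692). miR-101-3p had 10687 and 12852 CPM at P1, against 7372 and 5459 CPM at E11 (log2 fold change 0.88, SE 0.33). miR-29a-3p and miR-29b-3p, which target collagen transcripts, were rare. miR-29a-3p had 66 and 21 counts at P1, against 0 and 5 counts at E11 and miR-29b-3p 42 and 26 counts at P1, against 1 and 4 counts at E11. In each of these 4 both P1 libraries were above both E11 libraries in CPM, as in 30.4% of all entries tested. Without E11 replicate 2, miR-26a-5p had 2.07.

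miRNAs of blood cells rose in part. miR-451, abundant in red blood cells, had 32058 and 6934 CPM at P1, against 2641 and 2827 CPM at E11 (log2 fold change 2.83, SE 0.74), with P1 replicate 1 far above the other 3. Its cluster mates miR-144-3p and miR-144-5p moved the same way without passing. miR-144-3p had 2334 and 683 CPM at P1, against 350.2 and 489.8 CPM at E11 (log2 fold change 1.84, SE 0.71) and miR-144-5p 328 and 117 CPM at P1, against 78.8 and 38.9 CPM at E11 (log2 fold change 1.94, SE 0.71). Both arms of miR-2188, which is in neither the red blood cell nor the leukocyte list, rose with the same order of libraries at P1. miR-2188-5p had 3367 and 806 CPM at P1, against 409 and 284 CPM at E11 (log2 fold change 2.59, SE 0.70). miR-2188-3p had 54.7 and 27.1 CPM at P1, against 2.92 and 11.5 CPM at E11 (log2 fold change 2.33, SE 0.71). The cell type that holds miR-2188 was not tested. miR-142-5p, a miRNA of blood-forming cells, rose too, with 657 and 205 CPM at P1, against 61.3 and 101 CPM at E11 (log2 fold change 2.40, SE 0.71). Without P1 replicate 2, miR-451 had 3.60, miR-144-3p 2.53, miR-144-5p 2.53, miR-2188-5p 3.32 and miR-142-5p 3.07. Without E11 replicate 1 miR-144-5p had 2.59, and without E11 replicate 2 miR-2188-3p had 3.77. Log2 fold changes without P1 replicate 1 were 1.29 (miR-451), 0.65 (miR-144-3p), 0.94 (miR-144-5p), 1.16 (miR-2188-5p), 1.71 (miR-2188-3p) and 1.28 (miR-142-5p). The calls of miR-451, miR-2188-5p and miR-142-5p were lost in 5 of the 6 fits without 1 library and that of miR-2188-3p in all 6. The erythroid list, with no member at 0, took 3.05% and 0.622% of counts at P1, against 0.347% and 0.395% at E11, and the part of blood in these rises was not tested.

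miR-146a, induced in inflammatory signalling, was rare but higher at P1 in every library. miR-146a-5p had 106 and 81.9 CPM at P1, against 17.5 and 14.4 CPM at E11 (log2 fold change 2.57, SE 0.52), miR-146a-3p had 40.9 and 26.5 CPM at P1, against 8.76 and 10.1 CPM at E11 (log2 fold change 1.81, SE 0.55) and miR-146b-5p had 45.2 and 32.8 CPM at P1, against 8.76 and 1.44 CPM at E11 (log2 fold change 3.18, SE 0.84). All 3 rose. miR-146b-5p rested on 4 counts at E11, and leaving out E11 replicate 1 gave 4.74 and E11 replicate 2 2.13. The 3 calls were lost in 5 or 6 of the 6 fits without 1 library. The far more abundant miR-146c-5p had 8471 and 7998 CPM at P1, against 19233 and 8383 CPM at E11 (log2 fold change -0.75, SE 0.42). miR-142-3p (1.22, SE 0.74) and miR-223 (0.94, SE 0.72), both leukocyte miRNAs, did not pass. They had 0.28 and -0.15 without P1 replicate 1 and 1.84 and 1.60 without P1 replicate 2, and miR-142-3p had 2.47 without E11 replicate 2. Of 8 tested leukocyte markers 4 rose and none fell (median 1.52), beside 14.2% higher and 16.3% lower among all entries. Their summed share was 0.834% and 0.678% of counts at P1, against 2.19% and 1.01% at E11. Shares have no TMM scaling, so they cannot be set directly against these log2 fold changes. miR-146c-5p made up most of that share, and without E11 replicate 1 it had 0.03. miR-155 had 1 count in the 4 libraries, and the part of leukocytes was not tested.

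**Figure D3:**
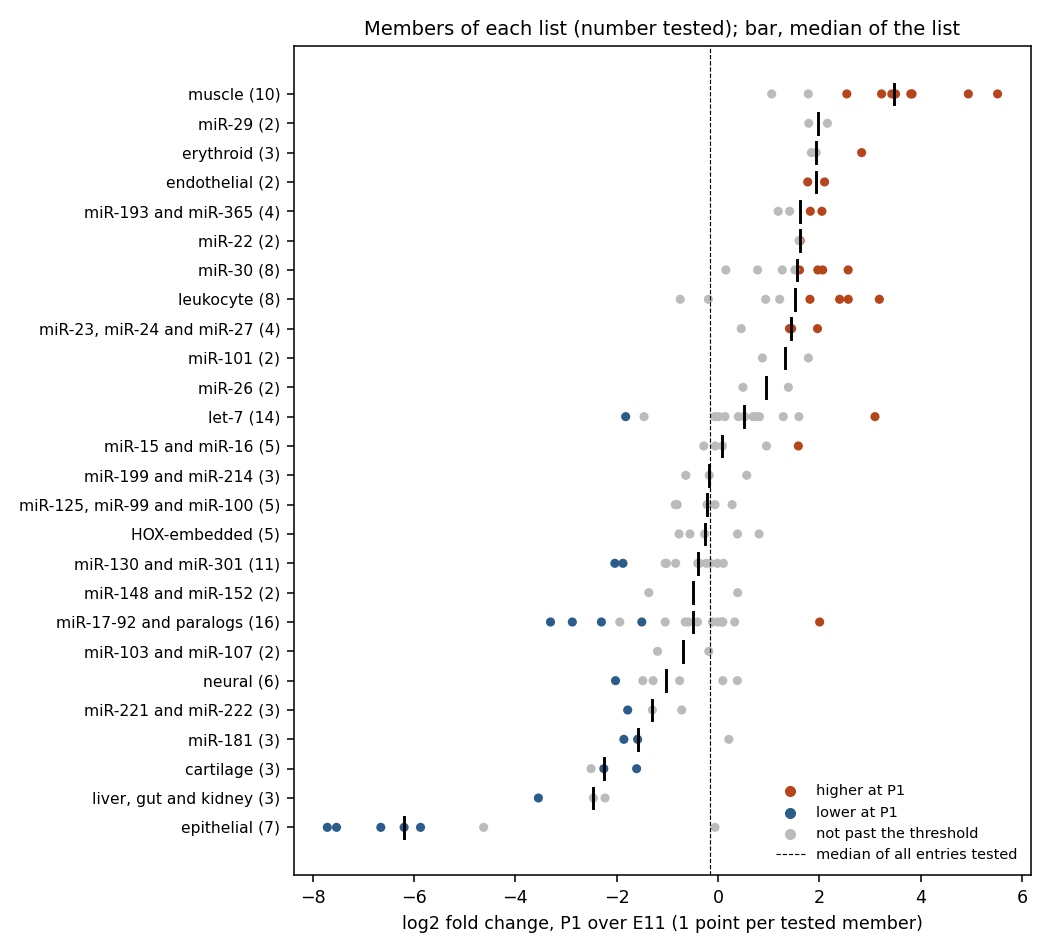
Log2 fold change of P1 over E11 (horizontal axis) of every tested member of the lists with at least 2 tested members, with the median of each list as a bar and the median of all entries tested, -0.15, as a dashed line. The muscle list has the highest median, with all 10 tested members above 0 and 8 past the threshold, and the epithelial list the lowest, with all 7 below 0 and 5 past the threshold.

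The last large rise was that of miR-2954, and it rested on a single library. With 437 and 8666 CPM at P1, against 306 and 313 CPM at E11, it passed the test (log2 fold change 3.88, SE 1.18), but without the library labelled P1 replicate 2 its log2 fold change was 0.55. Without P1 replicate 1 it was 4.75. It lost its call in 5 of the 6 fits without 1 library. miR-3523, for which no role is given here, rose with both P1 libraries alike. It had 236 and 201 CPM at P1, against 17.5 and 44.7 CPM at E11 (log2 fold change 2.77, SE 0.62), and a log2 fold change of 3.61 without E11 replicate 2, and lost its call in 5 of the 6 fits without 1 library.

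Epithelial miRNAs made up 5 of the 6 lowest log2 fold changes among the named calls. miR-205a, a miRNA of the epidermis and other stratified epithelia, had 43.5 and 3.39 CPM at P1, against 6403 and 3549.8 CPM at E11 (log2 fold change -7.71, SE 1.23). miR-205b had 59.4 and 23.2 CPM at P1, against 2834 and 3243 CPM at E11 (log2 fold change -6.19, SE 0.65). The E16 libraries already had low levels, 83.1 and 49.5 CPM at E16 for miR-205a and 84.7 and 61.9 CPM at E16 for miR-205b. In the miR-200 and miR-429 cluster, which holds epithelial cells in their state by acting on Zeb transcripts, the 2 E11 libraries differed widely. miR-429-3p had 18.1 and 1.13 CPM at P1, against 254 and 1730.3 CPM at E11 (log2 fold change -6.65, SE 1.64) and miR-200b-3p 12.1 and 0.565 CPM at P1, against 90.5 and 674 CPM at E11 (log2 fold change -5.87, SE 1.66). miR-200a-5p was counted 1 time in the P1 libraries together and 71 times in the E11 libraries, and the ratio of E11 over P1 in CPM was 280.2 with a 95% range of 48.7 to 11222 for counting error. miR-200a-3p had 29.7 and 2.26 CPM at P1, against 161 and 638 CPM at E11 and did not pass (log2 fold change -4.62, SE 1.62).

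Of 8 listed epithelial miRNAs 7 were tested, and 5 fell and none rose, with a median of -6.19. Among all entries tested 16.3% fell and 14.2% rose, and the median was -0.15. The list took 0.0997% and 0.00309% of counts at P1, against 1.18% and 1.21% at E11, and its part in other results was not tested. The exception was miR-203a, an epidermal miRNA, with 971 and 7.91 CPM at P1, against 659.6 and 362 CPM at E11 (log2 fold change -0.06, SE 1.60). P1 replicate 1 held more of it than either E11 library and P1 replicate 2 almost none. Without P1 replicate 1, miR-205a had -10.54, miR-205b -7.08, miR-429-3p -9.65, miR-200b-3p -9.13, miR-200a-5p -8.99, miR-200a-3p -7.42 and miR-203a -6.06. Without P1 replicate 2, they had -6.80, -5.62, -5.68, -4.88, -6.80, -3.66 and 0.96 in the same order. Without E11 replicate 1, miR-429-3p, miR-200b-3p and miR-200a-3p had -7.37, -6.60 and -5.21, and without E11 replicate 2 they had -4.66, -3.76 and -3.28. The calls of miR-429-3p and miR-200b-3p were lost in all 6 fits without 1 library and that of miR-205a in 1.

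miR-31-5p had the lowest log2 fold change of the named miRNAs. It is found in epidermis, and in mouse satellite cells it holds back translation of Myf5. It had 3.02 and 1.13 CPM at P1, against 23.3 and 1839.8 CPM at E11 (log2 fold change -8.71, SE 2.20). Nearly all of its counts came from E11 replicate 2, without which it had -3.41 and which also had the highest levels of miR-200b-3p and miR-429-3p. It had -9.63 without E11 replicate 1, -9.54 without P1 replicate 1 and -8.11 without P1 replicate 2, and lost its call in 5 of the 6 such fits. A provisional entry with nearly the same counts fell beside it, so the 2 calls may count the same reads.

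Of the 4 listed cartilage miRNAs 3 were tested, and both arms of miR-455 fell, beside 16.3% lower among all entries. miR-455-5p, from an intron of a cartilage collagen gene, had 819.8 and 1049 CPM at P1, against 3266 and 2425 CPM at E11 (log2 fold change -1.61, SE 0.38) and miR-455-3p had 57.7 and 87.6 CPM at P1, against 469.9 and 225 CPM at E11 (log2 fold change -2.25, SE 0.61). miR-140-3p, from a hairpin known for its part in cartilage, had 115 and 71.2 CPM at P1, against 914 and 146 CPM at E11 and did not pass (log2 fold change -2.50, SE 0.88). E11 replicate 1 was the highest library in all 3, and without it miR-455-3p had -1.58 and miR-140-3p -0.58. Without E11 replicate 2, miR-140-3p had -3.31. The list took 0.0872% and 0.0971% of counts at P1, against 0.525% and 0.329% at E11, with miR-140-5p at 0 in both P1 libraries and at 1 count in each E11 library, and its part in other results was not tested. The calls of both miR-455 arms were lost in 5 of the 6 fits without 1 library.

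In the miR-221 and miR-222 list 1 of 3 tested members fell, beside 16.3% lower among all entries. miR-222a, which with miR-221 is known to drop as quail and mouse myoblasts differentiate, had 1381 and 1218 CPM at P1, against 4068 and 4871 CPM at E11 (log2 fold change -1.78, SE 0.38), with 2033 and 1328 CPM at E16. miR-221-3p had 1562 and 1185 CPM at P1, against 2595 and 1922 CPM at E11 (log2 fold change -0.72, SE 0.38) and miR-221-5p 109 and 156 CPM at P1, against 196 and 455 CPM at E11 (log2 fold change -1.29, SE 0.62), which did not pass. In all 3 tested members of the pair both P1 libraries were below both E11 libraries, as in 34.6% of all entries. The call of miR-222a was lost in 4 of the 6 fits without 1 library, and miR-221-5p had -0.60 without E11 replicate 2. miR-103-3p, with 4406 and 4523 CPM at P1, against 13320.4 and 7108 CPM at E11, lay just outside the threshold (log2 fold change -1.19, SE 0.38, edgeR Benjamini-Hochberg adjusted p = 0.050006), as did miR-130b-3p (log2 fold change -1.04, SE 0.35, adjusted p = 0.0582).

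In the miR-17-92 cluster and its paralogs 4 of 16 tested members fell and 1 rose, beside 16.3% lower and 14.2% higher among all entries, and the median was -0.49. Whether these counts differ from the share over all entries was not tested. miR-92-3p, the one abundant member that fell, had 544 and 530.4 CPM at P1, against 1763 and 1285 CPM at E11 (log2 fold change -1.50, SE 0.40). The others were rare arms. miR-92-5p had 9.48 and 13 CPM at P1, against 61.3 and 50.4 CPM at E11 (log2 fold change -2.30, SE 0.51), miR-18b-3p 6.46 and 14.1 CPM at P1, against 152 and 54.7 CPM at E11 (log2 fold change -3.31, SE 0.71) and miR-19a-5p 2.58 and 1.69 CPM at P1, against 17.5 and 15.8 CPM at E11 (log2 fold change -2.87, SE 0.55). The main arms of the last 2 did not pass, at -0.58 (SE 0.52) for miR-18b-5p and -0.11 (SE 0.57) for miR-19a-3p. miR-17-3p was the member that rose, with 16.4 and 23.7 CPM at P1, against 5.84 and 4.32 CPM at E11 (log2 fold change 2.01, SE 0.59), while miR-17-5p had 1549.9 and 2250.4 CPM at P1, against 1608 and 2194 CPM at E11 and a log2 fold change of -0.00119 (SE 0.37). A provisional entry with nearly the same counts as miR-17-3p did not pass, and miR-17-3p had 2 and 3 counts at E11. Without E11 replicate 1, E11 replicate 2 and P1 replicate 2, miR-18b-3p had -2.36, -3.93 and -3.93, and miR-19a-3p had 0.79 without E11 replicate 2. The 5 calls were lost in 5 or 6 of the 6 fits without 1 library.

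The miR-181 family, known in mouse to rise as myoblasts differentiate, held 2 falls among 3 tested members, beside 16.3% lower among all entries. miR-181a-5p, its most abundant member, had 53924 and 68699 CPM at P1, against 74634 and 31099 CPM at E11 (log2 fold change 0.21, SE 0.43), and the P1 libraries lay between the E11 libraries. miR-181a-3p fell, with 773 and 1273 CPM at P1, against 3181 and 2963 CPM at E11 (log2 fold change -1.59, SE 0.39). miR-181b-5p fell as well, with 1179 and 1468 CPM at P1, against 7387 and 2209 CPM at E11 (log2 fold change -1.86, SE 0.57), but this rested on E11 replicate 1, without which it had -0.68, and it had -2.52 without E11 replicate 2. For miR-181a-5p, leaving out E11 replicate 1 gave 1.04 and E11 replicate 2 -0.32. With scaling by total counts it had -0.24. The calls of miR-181a-3p and miR-181b-5p were lost in 5 of the 6 fits without 1 library.

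Among single miRNAs of other organs, miR-184-3p and miR-122-5p fell. miR-184-3p, abundant in lens and cornea, had 28.9 and 31.1 CPM at P1, against 394 and 135 CPM at E11 (log2 fold change -3.13, SE 0.67). miR-122-5p, the main liver miRNA, had 4.31 and 3.95 CPM at P1, against 5.84 and 87.9 CPM at E11 (log2 fold change -3.54, SE 1.02), and E11 replicate 2 alone was clearly higher. In a neural list 4 of 6 tested members were below 0 and 1 fell, miR-128-2-5p, a rare arm with 7.75 and 13 CPM at P1, against 52.5 and 33.1 CPM at E11 (log2 fold change -2.02, SE 0.56). The median of the neural list was -1.02, beside -0.15 for all entries tested, of which 16.3% fell. The count of falls is near that share, and the difference in medians was not tested. The sensory and endocrine list had 1 tested member, with a log2 fold change of 0.45 (-0.01 with scaling by total counts), which did not pass. Without TMM scaling, the neural list took 0.340% and 0.362% of counts at P1, against 0.408% and 0.549% at E11. Its part in other results was not tested. Of the liver, gut and kidney list, miR-122-5p was the 1 of 3 that fell, and miR-194 (log2 fold change -2.23, SE 0.74) and miR-215-5p (log2 fold change -2.46, SE 1.04) did not pass. That list took 0.00345% and 0.00350% of counts at P1, against 0.0432% and 0.0148% at E11, and its part in other results was not tested. Without E11 replicate 2, miR-122-5p had -0.51, miR-184-3p -3.74, miR-194 -2.98 and miR-215-5p -3.39. Without E11 replicate 1 they had -4.32, -2.11, -1.21 and 0.31. These 3 calls were lost in 4 to 6 of the 6 fits without 1 library.

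**Figure D4:**
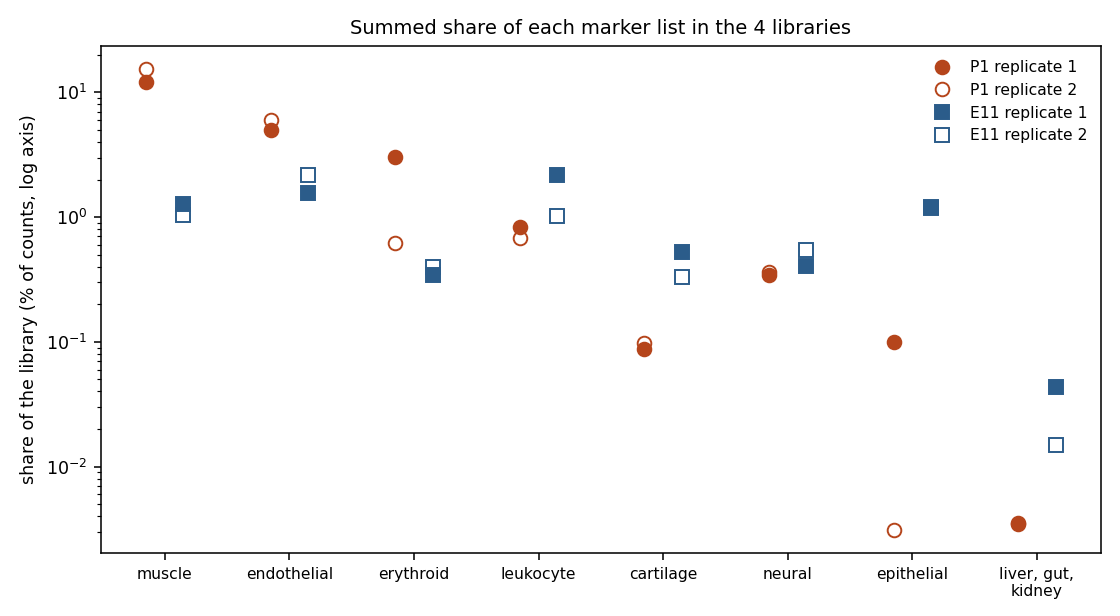
Share of all counts of a library (percent, vertical log axis) taken by each marker list in the P1 libraries (circles) and the E11 libraries (squares); filled symbols are replicate 1 and open symbols replicate 2. The muscle and endothelial lists are higher at P1, the cartilage, epithelial and liver, gut and kidney lists lower, and the erythroid and epithelial lists differ widely between the 2 P1 libraries.

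The other named falls had low levels and no role that is given here. miR-135a-5p had 9.05 and 4.52 CPM at P1, against 20.4 and 66.3 CPM at E11 (log2 fold change -2.69, SE 0.70), miR-460a-3p 28.9 and 22 CPM at P1, against 55.5 and 196 CPM at E11 (log2 fold change -2.32, SE 0.69) and miR-551-3p 9.48 and 0.565 CPM at P1, against 49.6 and 64.8 CPM at E11 (log2 fold change -3.44, SE 0.99). Of these, miR-135a-5p and miR-460a-3p were highest in E11 replicate 2 and had -1.57 and -1.14 without it. Without P1 replicate 1, miR-135a-5p had -3.30 and miR-551-3p -6.43, and without P1 replicate 2 miR-551-3p had -2.53. The 3 calls were lost in 5 of the 6 fits without 1 library. Among 42 tested miRNAs numbered 1000 or above, 4 rose (both miR-2188 arms, miR-3523 and miR-2954) and 8 fell, which is near the 14.2% higher and 16.3% lower of all entries. The steepest of these falls was that of miR-1720-3p, with 3 and 1 counts at P1, against 8 and 10 counts at E11 (log2 fold change -4.11, SE 0.69). miR-1677-3p (-3.54) and miR-3528 (-3.45) had nearly the same counts in every library, so they may be the same reads. The other 5 were miR-1625-5p (-3.36), miR-6631-5p (-3.23), miR-1467-5p (-2.23), miR-1552-5p (-1.87) and miR-1563 (-1.80). Without P1 replicate 1, miR-6631-5p had -5.63 and miR-1720-3p -4.80, and without P1 replicate 2 miR-6631-5p had -2.37 and miR-1677-3p -4.19. The calls of miR-6631-5p, miR-1552-5p and miR-1563 were lost in all 6 fits without 1 library. Those of miR-1677-3p and miR-3528 were lost in the 5 that tested them, and that of miR-1467-5p in the 3 that tested it. The call of miR-1625-5p was lost in 5 of the 6 and that of miR-1720-3p in 4.

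The arms of a hairpin come from the same precursor, and 47 hairpins had both arms tested. In 35 both arms had the same sign. Both arms passed in 8 hairpins, always in the same direction, 6 higher (miR-126, miR-133a, miR-146a, miR-193a, miR-2188 and miR-499) and 2 lower (miR-455 and miR-92). In 15 hairpins a single arm passed, the less abundant arm in 9 and the more abundant in 6. Among less abundant arms 10 fell and 7 rose, and among more abundant arms 3 fell and 11 rose. Of all entries tested, 16.3% fell and 14.2% rose.

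The ratio of the more abundant to the less abundant arm was higher in both P1 libraries than in both E11 libraries in 22 of the 47 hairpins and lower in 6. For this ratio 0.5 was added to the count of each arm. That lowers the ratio most where the less abundant arm has few counts, as in the shallower E11 libraries. The part of depth in this split was not tested. miR-301b-5p fell, with 9.05 and 9.04 CPM at P1, against 32.1 and 34.6 CPM at E11 (log2 fold change -1.88, SE 0.48), while its main arm miR-301b-3p had 3476 and 4052 CPM at P1, against 2749 and 4839 CPM at E11 (log2 fold change -0.01, SE 0.40). miR-301a-5p fell too, with 7.75 and 5.65 CPM at P1, against 32.1 and 24.5 CPM at E11 (log2 fold change -2.04, SE 0.51), and miR-301a-3p had -1.02 (SE 0.50). In let-7c, miR-181a, miR-18b and miR-19a, too, the less abundant arm fell and the main arm did not pass. Of these arms miR-181a-3p was not rare, with a mean of 1023 CPM at P1 and 3072 CPM at E11. The difference between arms was not tested, and many less abundant arms rested on few counts in the E11 libraries. The calls of miR-301a-5p and miR-301b-5p were lost in all 6 fits without 1 library, and miR-301a-3p had -0.25 without E11 replicate 2.

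**Figure D5:**
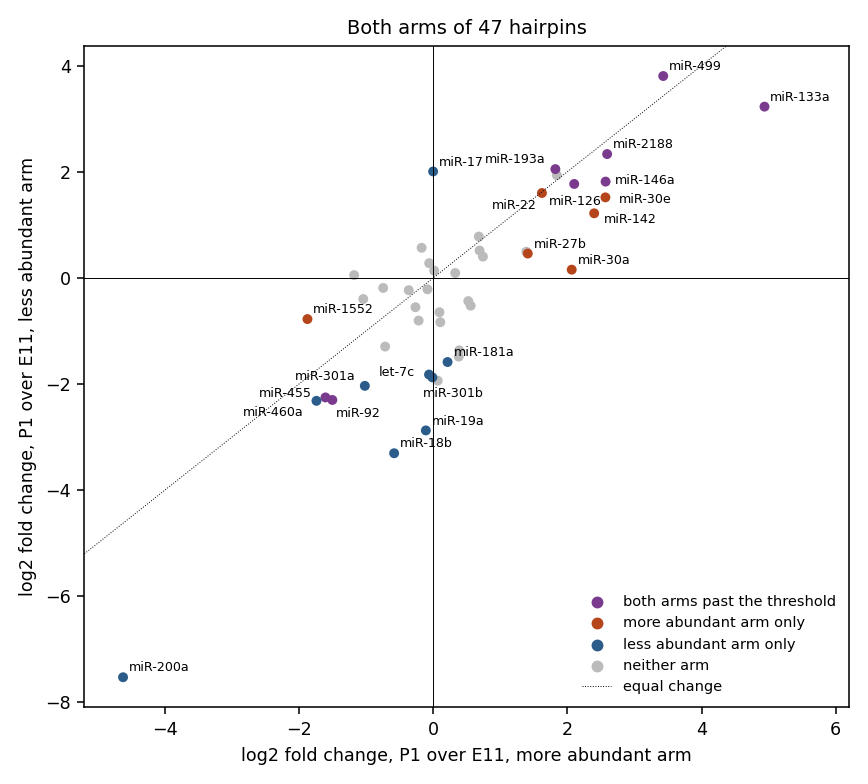
Log2 fold change of P1 over E11 of the more abundant arm (horizontal axis) and the less abundant arm (vertical axis) of the 47 hairpins with both arms tested; the dotted line marks equal change and colours show which arms passed the threshold. Hairpins such as miR-181a, let-7c, miR-301b, miR-19a and miR-18b lie near 0 on the horizontal axis and well below 0 on the vertical axis.

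In some lists of abundant miRNAs no member passed. In the HOX-embedded list the 5 tested members lay between -0.77 and 0.81. In the list of miR-199 with miR-214, mesenchymal miRNAs, 3 tested members lay between -0.64 and 0.57. In the miR-125, miR-99 and miR-100 list 5 lay between -0.84 and 0.28. Its share was 1.58% and 1.23% of counts at P1, against 2.77% and 3.41% at E11. With scaling by total counts 2 of the 5 were called lower. The 11 tested members of the miR-130 and miR-301 family, apart from the 2 rare arms that fell, did not pass either, with a median of -0.40 over all 11. SEs in the first 3 of these lists lay between 0.31 and 0.80 on the log2 scale, and a p that misses the threshold does not show that levels were alike. The pluripotency miRNAs of the miR-302 group had no count at P1 and a count of 3 over both E11 libraries, too few to test.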

How the data were processed

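Per the labels' protocols, total RNA was extracted with Trizol and miRNA libraries were made from it by an Illumina protocol; the sample description mentions RNase R treatment, and how that applies to these libraries was not settled. Per the submitters' processing notes, Trim Galore, Bowtie, TopHat and Cufflinks were used, in roles not stated, with the galGal4 genome. The deposited files hold 1 value per miRNA entry, headed FPKM by the authors. The deposited values were used as counts, since they are whole numbers with different totals in each library. Missing entries were taken as 0, which gave 846 entries, 534 with a miRBase-style name and 312 provisional.

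Entries were filtered with filterByExpr (minimum count 10, minimum total 15), scaled by TMM and tested with edgeR 4.0.16 (R 4.3.3) by a two-sided quasi-likelihood F-test over all 6 libraries, with 1 coefficient per age, 3 residual degrees of freedom and a Benjamini-Hochberg threshold of 0.05. The 289 tested entries comprise 199 named and 90 provisional ones. SE is the absolute log2 fold change divided by the square root of the F statistic of this test. Library totals lay between 303556 and 2641042 counts. Intervals are 95% and, like the floor of 3 counts, cover counting error only. Alternatives used DESeq2 1.42.0, limma 3.58.1 with a pseudocount of 0.5 CPM, other scalings, filters and samples. Scripts were tested on simulated data. Pairs of entries whose counts differed by at most 10% or 3 counts in every library were listed as alike, and there were 12.

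The members and lists were chosen with earlier results of these data known. Named miRNAs are the 20 largest rises and 20 largest falls with their other arms, the 10 most abundant at each age and the 3 most abundant tested members of each of 30 lists. The rises and falls were taken from named entries past the threshold whose P1 and E11 samples did not overlap in CPM. Outside this rule, and chosen after their values were seen, are miR-30d, miR-301b-5p, miR-301a-5p, miR-27b-5p, miR-223, miR-203a, miR-1b-3p, miR-1a-1-5p, miR-193a-5p, miR-17-3p, miR-1563, miR-1552-5p, miR-155, miR-1467-5p, miR-140-5p, miR-128-2-5p, let-7g-5p, let-7c-5p and let-7c-3p. Sequences were not used here. No library was left out.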

Additional observations from a re-analysis of the deposited data

How the results depend on the processing

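No entry that passed changed sign under any of the 18 alternatives. In all, 81 passed with RLE scaling, 77 with upper quartile scaling, 97 with DESeq2, 73 with limma, 99 with no filter, 70 with named entries alone, 66 without the muscle and epithelial lists and 80 with 1 entry of each like pair left out, an alternative chosen after seeing the data. The higher calls were 20 with scaling by total counts, where 84 passed. A minimum count of 50 gave 59 calls, 33 higher and 26 lower, and no filter gave 55 higher and 44 lower. In both the higher calls were the more frequent, against 41 higher and 47 lower in the main fit. The E11 and P1 samples alone gave 28 calls, 12 higher and 16 lower. Without 1 library, 10 to 61 passed, 5 to 26 higher and 5 to 35 lower, and 8 were kept in all 6 fits. A left-out P1 or E11 library leaves 1 sample at that age, which is assumed to vary like the others. The replicate block gave 30 calls, 14 higher and 16 lower. Deviations of same-numbered samples from their age means had a correlation of -0.03 for P1 with E11, -0.02 for E16 with E11 and 0.33 for P1 with E16. Such correlations cannot show whether the numbers pair the samples, and the main fit took the samples as unpaired. The cause of the shifts in calls was not tested. Among entries that did not pass, the following log2 fold changes had the opposite sign to the value reported. With RLE scaling they were 0.025 for miR-17-5p, 0.027 for miR-301b-3p and 0.092 for miR-203a. With scaling by total counts they were -0.0065 for miR-27b-5p, -0.067 for miR-148a-3p, -0.24 for miR-181a-5p and -0.30 for miR-30a-3p. With upper quartile scaling it was -0.0055 for miR-30a-3p. With DESeq2 they were 0.024 for miR-17-5p, 0.027 for miR-301b-3p and 0.090 for miR-203a. With limma they were 0.041 for miR-301b-3p and 0.073 for miR-19a-3p. With no filter they were 0.30 for miR-17-5p, 0.30 for miR-301b-3p, 0.36 for miR-203a, 0.25 for let-7c-5p, 0.21 for miR-19a-3p and 0.053 for miR-10b-5p. With a minimum count of 50 it was 0.024 for miR-203a. With the replicate block it was 0.0065 for miR-301b-3p. Without muscle and epithelial lists they were 0.0099 for miR-17-5p and 0.010 for miR-301b-3p. With 1 entry of each like pair left out they were 0.0098 for miR-17-5p, 0.011 for miR-301b-3p and 0.015 for miR-203a. Over the fits without 1 library the ranges were -6.06 to 0.96 for miR-203a, -0.34 to 0.30 for let-7c-5p, -1.25 to 0.034 for miR-146c-5p, -3.39 to 0.31 for miR-215-5p, -0.0057 to 1.32 for let-7f-5p, -0.32 to 1.04 for miR-181a-5p, -0.34 to 0.87 for miR-30a-3p, -0.24 to 0.20 for miR-17-5p, -0.31 to 0.42 for miR-301b-3p, -0.62 to 0.79 for miR-19a-3p, -1.53 to 1.25 for miR-10a-5p and -0.15 to 1.60 for miR-223. The median of the miR-15 and miR-16 list was -0.38 and that of the sensory and endocrine list -0.01 with scaling by total counts, against 0.09 and 0.45 with TMM. The lower depth at E11 (303556 and 589154 counts) limits rare entries.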

Other observations

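Of all entries, 64 had counts in both P1 libraries and in neither E11 library, of which 32 were named and none was tested, and 19 had counts in both E11 libraries and in neither P1 library, of which 12 were named. The muscle miRNA miR-1b-3p had the highest total of the 32, with 25 counts at P1 and 0 at E11. The named entries seen only at E11 had at most 4 counts, and 1 provisional entry of the 19 was tested. P1 libraries were the deeper, so a count of 0 at E11 allows up to 8.76 and 4.32 CPM, against 1.29 and 1.69 CPM for a count of 0 at P1.

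Provisional entries, those without a miRBase-style name, took 34.7% and 32.1% of counts at P1, against 42.9% and 38.8% at E11. Of 90 tested, 9 rose and 15 fell, beside 14.2% higher and 16.3% lower among all entries. Some provisional entries had nearly the same counts as a named miRNA in every library. Over the 6 libraries, 1 had 503443 counts beside 504254 for miR-10b-5p, and 1 had 410479 beside 410766 for miR-181a-5p. Others had 65213 beside 65263 for miR-146c-5p and 42108 beside 42158 for let-7a-5p. Whether such pairs count the same reads was not tested, nor was their part in the share of provisional entries.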
